A study of Mus musculus with 6 samples.

Results

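Enzymes that make and use glutathione, and the other main enzymes that remove peroxides and superoxide, were followed in mouse prostate tumors and in normal prostate. They were chosen by symbol: the soluble glutathione transferases (Gsta, Gstk, Gstm, Gsto, Gstp, Gstt and Gstz genes), the microsomal ones (Mgst), the glutathione peroxidases (Gpx), the peroxiredoxins (Prdx) and the thioredoxin reductases (Txnrd), together with Gclc, Gclm, Gss, Gsr, Cat, Sod1, Sod2, Sod3, Nqo1, Hmox1 and Nfe2l2. The rule used no measured value and found 53 of the 24091 genes in the count table. Of these, 46 had enough reads to be tested. The other 7 (Gpx6, Gsta1, Gsta2, Gstm3, Gstp2, Gstp3 and Gstt4) were below 1 CPM in every library, where CPM is counts relative to the scaled library total, from edgeR's cpm.

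RNA was sequenced from 6 libraries in 3 groups of 2. The 12Q tumors came from males with a humanised allele that encodes a polyglutamine tract of 12 residues, 1 Ctnnb1 allele with a conditional exon 3 (Ctnnb1(Ex3)L/wt) and the PBCre-4 transgene. The 48Q tumors had the same Ctnnb1 allele and transgene with a 48-residue tract in the humanised allele. Normal prostate (WT) was from wild-type mice, so WT differs from both tumor groups in all 3 alleles as well as in being free of tumor, and these cannot be told apart. The transgene drives Cre recombinase in prostate epithelium, and Cre cuts out the exon that holds the phosphorylation sites needed for β-catenin turnover. The series asks how the length of the tract bears on tumors driven by Wnt/β-catenin signalling. The labels do not say that replicates were separate animals. The p-values therefore set group differences against the spread between these libraries only, and that spread may be technical.

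Glutathione is a tripeptide made in a pair of steps, by glutamate-cysteine ligase (the catalytic subunit Gclc and the modifier subunit Gclm) and glutathione synthetase (Gss). Glutathione peroxidases and transferases spend it on peroxides and reactive compounds, and glutathione reductase (Gsr) recycles it with NADPH. Peroxiredoxins remove peroxides with electrons that reach most of them from thioredoxin reductases. The transcription factor Nfe2l2 (Nrf2) binds antioxidant response elements with small Maf proteins and induces many of these genes, among them Nqo1, Gclc, Gclm, Txnrd1 and Hmox1, when its inhibitor Keap1 is inactivated.

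Promoters that hold the core of the antioxidant response element are shown for the 4 genes called in a comparison below whose promoter has one. RefSeq promoter windows (GRCm38.p6, 250 bases before the start site to 50 after it) were matched for 46 of the 53 genes, and Gclc, Gsr, Gsta4, Gstt2, Hmox1, Prdx6 and Sod3 were not searched. The core was searched as TGACNNNGC on both strands, and it stands in capitals here with 20 bases on each side, on the strand of the gene.
Mgst1, chr6:138140451-138140499, plus strand: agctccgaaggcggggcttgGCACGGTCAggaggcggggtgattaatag
Prdx1, chr4:116685446-116685494, plus strand: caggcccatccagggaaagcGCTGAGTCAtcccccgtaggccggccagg
Txnrd1, chr10:82859094-82859142, plus strand: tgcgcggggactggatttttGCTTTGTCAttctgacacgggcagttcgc
Gsta3, chr1:21240444-21240492, plus strand: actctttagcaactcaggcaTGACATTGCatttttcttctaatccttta
In Mgst1, Prdx1 and Txnrd1 the match is on the opposite strand, so the capitals read as its reverse complement. Its first capital lay 56, 133 and 92 bases before the start site in these 3 genes, and 121 bases before it in Gsta3. Txnrd1 has 3 windows and Mgst1 has 2, and in each gene only 1 window held the core. That of Txnrd1 belongs to a start site inside the span of the gene, not at its first base. The Prdx1 match overlaps a match to TGANTCA, the core of AP-1 sites. The core was also present in windows of Nfe2l2, Gclm, Gstm5, Gstm7 and Sod1, which makes 9 of the 46 genes (19.57%), against 13.99% of all 27025 genes with a window. TGANTCA was found in 5 of the 46 genes (10.87%) and in 8.97% of all genes. The windows of Nqo1, Gpx3, Gstt1, Gstz1, Prdx4 and Prdx5 hold no TGACNNNGC. Sequence more than 250 bases before a start site was not searched, so these genes may have the core farther out. A match describes these letters only.

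The libraries held 26416181 to 28559546 counts. The factors of TMM (trimmed mean of M-values, which scales the library totals) were 1.02 to 1.24 in the tumors and 0.708 and 0.811 in WT, where the secretory gene 9530053A07Rik alone took 17.4% and 22.8% of all counts. The 12Q replicates stood apart from each other more for these genes than for genes at large. Of the 46 tested genes, 18 (39.1%) differed over 2-fold between the 12Q replicates, against 20.5% of all genes. In 12Q replicate 1, 36 of the 46 were higher, as were 49.2% of all genes. In 48Q and WT 4 of the 46 genes (8.70% in each) differed that much, against 4.85% and 24.8% of all genes.

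Most of the reads of these genes in normal prostate came from Prdx6. Prdx6 (chr1:161240112-161251210, minus strand), a peroxiredoxin that reduces phospholipid hydroperoxides with glutathione, had 4120 and 1823 CPM in 12Q tumors, 2620 and 2463 CPM in 48Q tumors and 12535 and 9722 CPM in WT. Per gene length, its level ranked 15 and 29 among the 24091 genes in the 12Q libraries, 13 and 15 in the 48Q libraries and 7 and 5 in WT. The WT libraries were above all 4 tumor libraries, with log2 fold changes against WT of -1.91 ± 0.62 (SE) in 12Q and -2.13 ± 0.62 in 48Q. Neither difference passed the threshold by edgeR (adjusted p = 0.0722 and 0.101), while both did by DESeq2 (0.000101 and 2.49e-05).

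Summed over all 53 genes, the level was 7575 and 4316 CPM in 12Q, 4769 and 4665 CPM in 48Q and 14820 and 11597.5 CPM in WT. Without Prdx6 it was 3455 and 2493 CPM in 12Q, 2149 and 2202 CPM in 48Q and 2285 and 1876 CPM in WT. With Prdx6 the WT libraries are the highest, and without it the 12Q libraries are. On the scale of CPM per kilobase of gene length (RPKM), on which levels of genes can be compared, the next highest genes by their mean over libraries were Gpx1, Prdx1, Prdx5, Sod1, Mgst1, Prdx3 and Gpx3. The summed level of the microsomal transferases did not overlap between the groups, at 411 and 268 RPKM in 12Q, 119 and 128 RPKM in 48Q and 35.9 and 46.9 RPKM in WT. Mgst1 carries this order, since Mgst3, the next of the class, had 100.3 and 37.7 RPKM in 12Q, 14.8 and 16.5 RPKM in 48Q and 23.8 and 31.1 RPKM in WT.

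**Figure D1:**
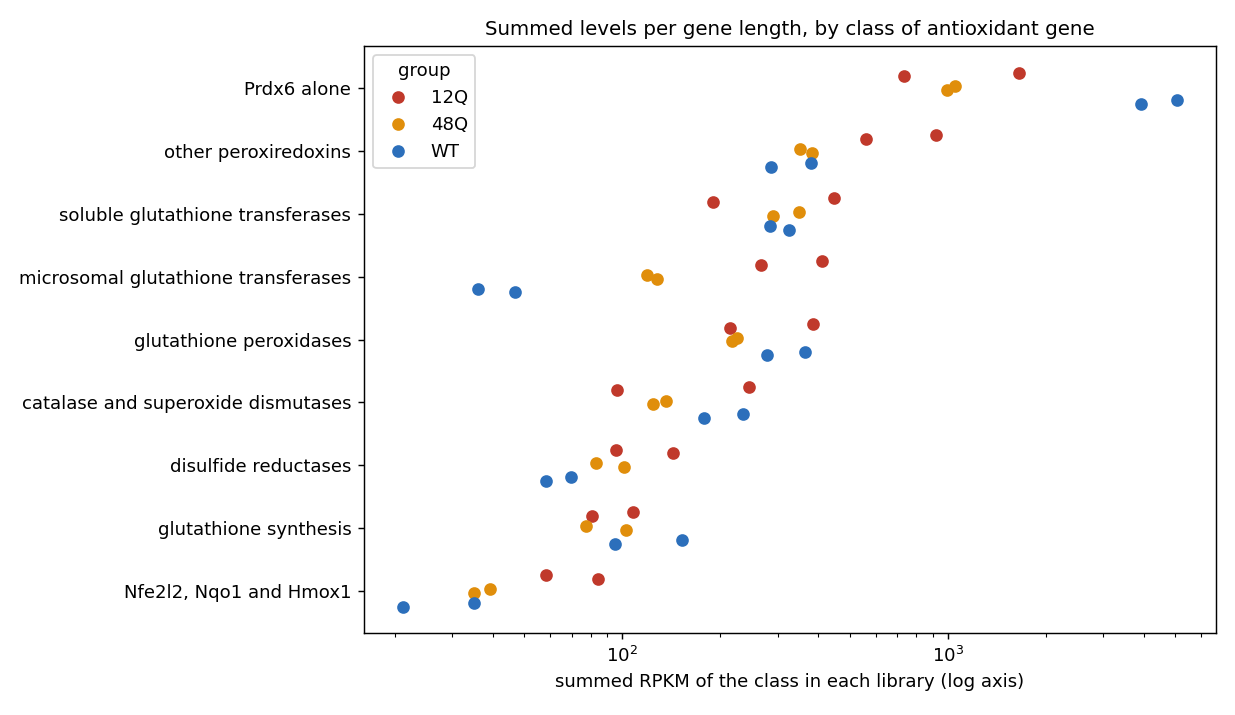
Summed RPKM (log axis) of each class of antioxidant gene in each of the 6 libraries, with Prdx6 set apart from the other peroxiredoxins; each point is 1 library, coloured by group. Prdx6 alone is highest in the WT libraries (5048 and 3915 RPKM), whereas the microsomal transferases are highest in the 12Q libraries.

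Relative to WT, 12Q tumors had higher Mgst1, Hmox1, Prdx4, Prdx5, Txnrd1, Gstt1 and Prdx1 and lower Nqo1, Gpx3, Gclc and Gstz1. These were 7 of the 46 tested genes higher (15.2%) and 4 lower (8.70%), 23.9% in all, by edgeR's quasi-likelihood F test at an adjusted p under 0.05 in 1 fit of the 3 groups. Among all 15050 genes tested, 22.4% passed in this comparison, 11.2% higher and 11.2% lower, so the share of antioxidant genes called was close to that of genes in general. The remaining 35 genes did not pass, while 21 of the 46 had an unadjusted p under 0.05. The share of all genes at that unadjusted p was not counted in any comparison. Counts at an unadjusted p, here and for the lists below, therefore have no background to be read against. The median log2 fold change of the 46 genes was 0.10, with 24 genes above 0 and 22 below, against a median of -0.01 over all genes. Their median absolute log2 fold change was 1.13, against 0.76 over all genes.

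In 48Q tumors Mgst1 alone of the 46 genes passed against WT, as higher (2.17% of the 46, with 0 genes lower by edgeR, 15 at an unadjusted p under 0.05, and 6 higher and 4 lower by DESeq2). The background by edgeR was 5.18% of all genes, 3.95% higher and 1.23% lower, and DESeq2 called 1561 of the 15050 genes higher and 979 lower. The median log2 fold change was -0.02 over the 46 genes and 0.02 over all. Between the tumors, Prdx5 was higher in 12Q, and Nqo1, Gpx3 and Gsta3 were lower. These are 4 of the 46 genes (8.70%, with 17 at an unadjusted p under 0.05), against 4.17% of all genes, of which 1.01% were higher and 3.16% lower. The median log2 fold change in 12Q against 48Q was 0.24 over the 46 genes and 0.00 over all. Leaving out 1 library moved these counts. Against WT, 12Q had 2 higher and 2 lower without WT replicate 2 and 3 higher and 2 lower without WT replicate 1, while 48Q had 0 and 0 without WT replicate 1. Between the tumors, 0 and 0 passed without either 48Q replicate. Both tumor groups were compared with the same 2 WT libraries, and the test of 12Q against 48Q is also the test of whether the 2 differences from WT differ. In all, 12 of the 46 genes passed in at least 1 comparison, with 16 calls, by edgeR, and 34 passed in none. DESeq2 called 12 of those 34 in at least 1 comparison. Over all 15050 genes it called 4916 in 12Q against WT, 2540 in 48Q against WT and 2481 between the tumors. The share of all genes called in at least 1 comparison was not counted for either tool, so the 12 of 46 and 12 of 34 have no background beside them.

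**Figure D2:**
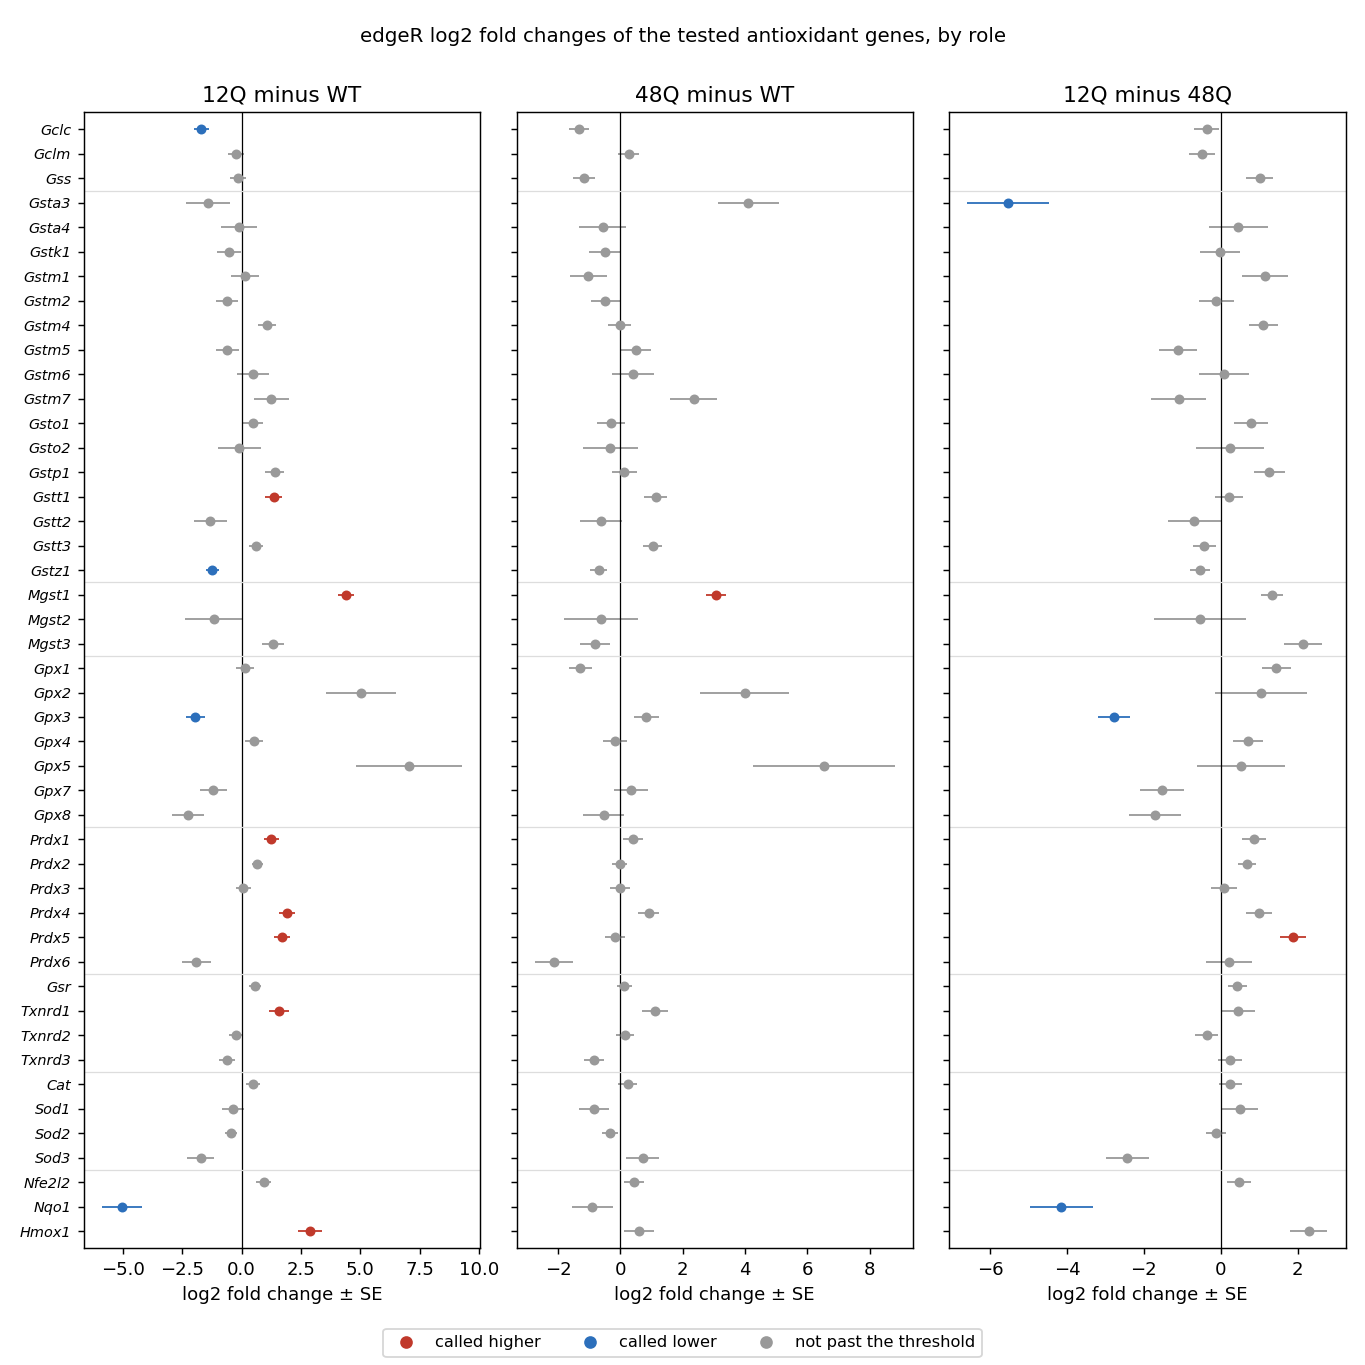
Log2 fold changes from edgeR with their standard errors for the 46 tested genes, grouped from top to bottom as synthesis, soluble transferases, microsomal transferases, glutathione peroxidases, peroxiredoxins, disulfide reductases, catalase and superoxide dismutases, and Nfe2l2 with Nqo1 and Hmox1, in the 3 comparisons. Genes called higher (red) and lower (blue) number 7 and 4 in 12Q minus WT, 1 and 0 in 48Q minus WT and 1 and 3 in 12Q minus 48Q; the fitted value of Gpx5 against WT, where it had no read, depends on the prior count.

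Among the genes of glutathione synthesis, the rate-limiting subunit was lower in 12Q tumors. Gclc (chr9:77754535-77794489, plus strand) had 25.2 and 27.3 CPM in 12Q tumors, 36.7 and 30.7 CPM in 48Q tumors and 109 and 60.3 CPM in WT. All 4 tumor libraries lay below both WT libraries, and Gclc fell 3.23-fold in 12Q against WT (-1.69 ± 0.33 on the log2 scale, edgeR adjusted p = 0.0183). In 48Q the log2 fold change was -1.33 ± 0.33 and did not pass (edgeR adjusted p = 0.0696), and 12Q against 48Q gave -0.36 ± 0.32. The Gclc call in 12Q was lost without 12Q replicate 1 (edgeR adjusted p = 0.0688) and without 12Q replicate 2 (0.0672). Gclm, the modifier subunit, had 104 and 64.1 CPM in 12Q, 92.8 and 145 CPM in 48Q and 109 and 89.4 CPM in WT, and the groups overlapped. Gss, which adds glycine in the last step, had 97.5 and 80.8 CPM in 12Q, 42.2 and 46.4 CPM in 48Q and 132 and 66.2 CPM in WT. It passed the edgeR test in no comparison, while DESeq2 called it lower in 48Q against WT (DESeq2 adjusted p = 0.0312), as did edgeR without WT replicate 2 (0.044). Its exons overlap Acss2 on the opposite strand, and since the strand setting of the counting is not given, its reads may include those of Acss2.

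The 16 tested soluble transferases did not move in 1 direction. Gstt1 (chr10:75783813-75798584), a theta-class transferase, had 21.7 and 17.1 CPM in 12Q tumors, 19.4 and 14.1 CPM in 48Q tumors and 5.998 and 9.29 CPM in WT. It rose in 12Q against WT (1.34 ± 0.37 on the log2 scale, edgeR adjusted p = 0.0454), and the value in 48Q against WT was 1.13 ± 0.37 without passing (0.125). The call was lost when any 1 of the 6 libraries was left out (edgeR adjusted p from 0.0514 to 0.118). Gstz1 (chr12:87147165-87164723), the zeta-class enzyme that isomerises maleylacetoacetate in tyrosine breakdown, had 35.4 and 23.6 CPM in 12Q, 45.2 and 40.2 CPM in 48Q and 67.1 and 71.6 CPM in WT. The 3 groups did not overlap, with 12Q lowest and WT highest. It fell in 12Q against WT (-1.23 ± 0.27 on the log2 scale, edgeR adjusted p = 0.0244), while -0.70 in 48Q against WT did not pass, nor did -0.53 in 12Q against 48Q. The call was kept without 12Q replicate 1 (edgeR adjusted p = 0.0207) and lost without any 1 of the other 5 libraries (from 0.0587 to 0.0678). Gstz1 overlaps Pomt2 on the opposite strand, where 4.9% of its 50-base windows are shared.

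Gsta3 was the soluble transferase with the widest spread between the tumors. This alpha-class enzyme (chr1:21240585-21265575), which conjugates glutathione to products of lipid peroxidation and in the mouse detoxifies aflatoxin epoxide, had 3.996 and 0.495 CPM in 12Q tumors, 115 and 90.6 CPM in 48Q tumors and 2.87 and 9.02 CPM in WT. Both 48Q libraries stood above the other 4 libraries, while 12Q and WT overlapped. It was 46.3-fold lower in 12Q than in 48Q (-5.53 ± 1.05 on the log2 scale, edgeR adjusted p = 0.0452), a value that was -7.66 without 12Q replicate 1 and -4.68 without 12Q replicate 2. The 17.3-fold difference of 48Q from WT, 4.11 ± 0.98 on the log2 scale, did not pass (0.0648), but did under 6 of the 12 alternatives, DESeq2 among them (3.12e-05). The call between the tumors was lost when any 1 of the 6 libraries was left out (edgeR adjusted p from 0.0549 to 0.135).

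Of the other 13 tested soluble transferases, none passed the edgeR test in any comparison, while DESeq2 called Gstm4, Gstm7, Gstp1 and Gstt3. Gstp1, the pi-class enzyme, had 19.4 and 11.1 CPM in 12Q, 6.35 and 6.36 CPM in 48Q and 5.16 and 6.46 CPM in WT, so that both 12Q libraries were above the rest (log2 fold change 1.39 against WT, edgeR adjusted p = 0.0561). Its reads are uncertain, since 62.3% of its 50-base windows also occur in Gstp2. Gstm4, of the mu class, had 18.3 and 11.3 CPM in 12Q, 6.38 and 7.33 CPM in 48Q and 6.89 and 7.07 CPM in WT (1.09 against WT, 0.0861). Gstm1, the mu-class gene with the highest level per length, had 134 and 33.7 CPM in 12Q, 42.4 and 32.5 CPM in 48Q and 68.2 and 84.7 CPM in WT. Its 12Q replicates were far apart, and the groups overlapped. Of its 50-base windows, 23.1% also occur in another gene. Gsto1, Gstm2, Gsta4 and Gstt3 lay between 9.97 and 115 CPM in every library, and Gstk1, Gstt2, Gstm5, Gstm6, Gstm7 and Gsto2 at or below 15.2 CPM.

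Mgst1 was higher in both tumor groups than in WT, and no other antioxidant gene passed the edgeR test in both, while DESeq2 also called Gclc, Gpx2, Gstt1 and Prdx6 in both. Of these, Gpx2 entered the test only through the tumor libraries. Mgst1 (chr6:138140537-138156752, plus strand), a membrane-bound transferase of the endoplasmic reticulum and outer mitochondrial membrane that also reduces lipid hydroperoxides, had 292 and 215 CPM in 12Q tumors, 96.9 and 104 CPM in 48Q tumors and 9.23 and 14.5 CPM in WT. The groups did not overlap. It rose 21.3-fold in 12Q against WT (4.41 ± 0.34 on the log2 scale, edgeR adjusted p = 0.0027) and 8.45-fold in 48Q against WT (3.08 ± 0.32, 0.0114). Per length it ranked 133 and 127 of 24091 genes in the 12Q libraries, 315 and 277 in the 48Q libraries and 5656 and 3978 in WT. The difference between the tumors, 1.33 ± 0.30 on the log2 scale, did not pass (edgeR adjusted p = 0.0597), but did under 4 of the 12 alternatives. The 12Q call was kept under all 12 alternative settings. The 48Q call was lost without WT replicate 1 (edgeR adjusted p = 0.08), where 0 of all genes passed the edgeR test. By sequence, 0.0% of its 50-base windows occur in another gene.

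The other microsomal transferases did not pass the edgeR test, while DESeq2 called Mgst3 higher in 12Q against WT and against 48Q (DESeq2 adjusted p = 0.0355 and 0.000568). Mgst3 had 63.1 and 23.7 CPM in 12Q tumors, 9.33 and 10.4 CPM in 48Q tumors and 14.97 and 19.6 CPM in WT. Both 12Q libraries were above the other 4, with log2 fold changes of 1.33 against WT (edgeR adjusted p = 0.0933) and 2.14 against 48Q (0.0625). Mgst2 was at or below 1.36 CPM in every library.

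**Figure D3:**
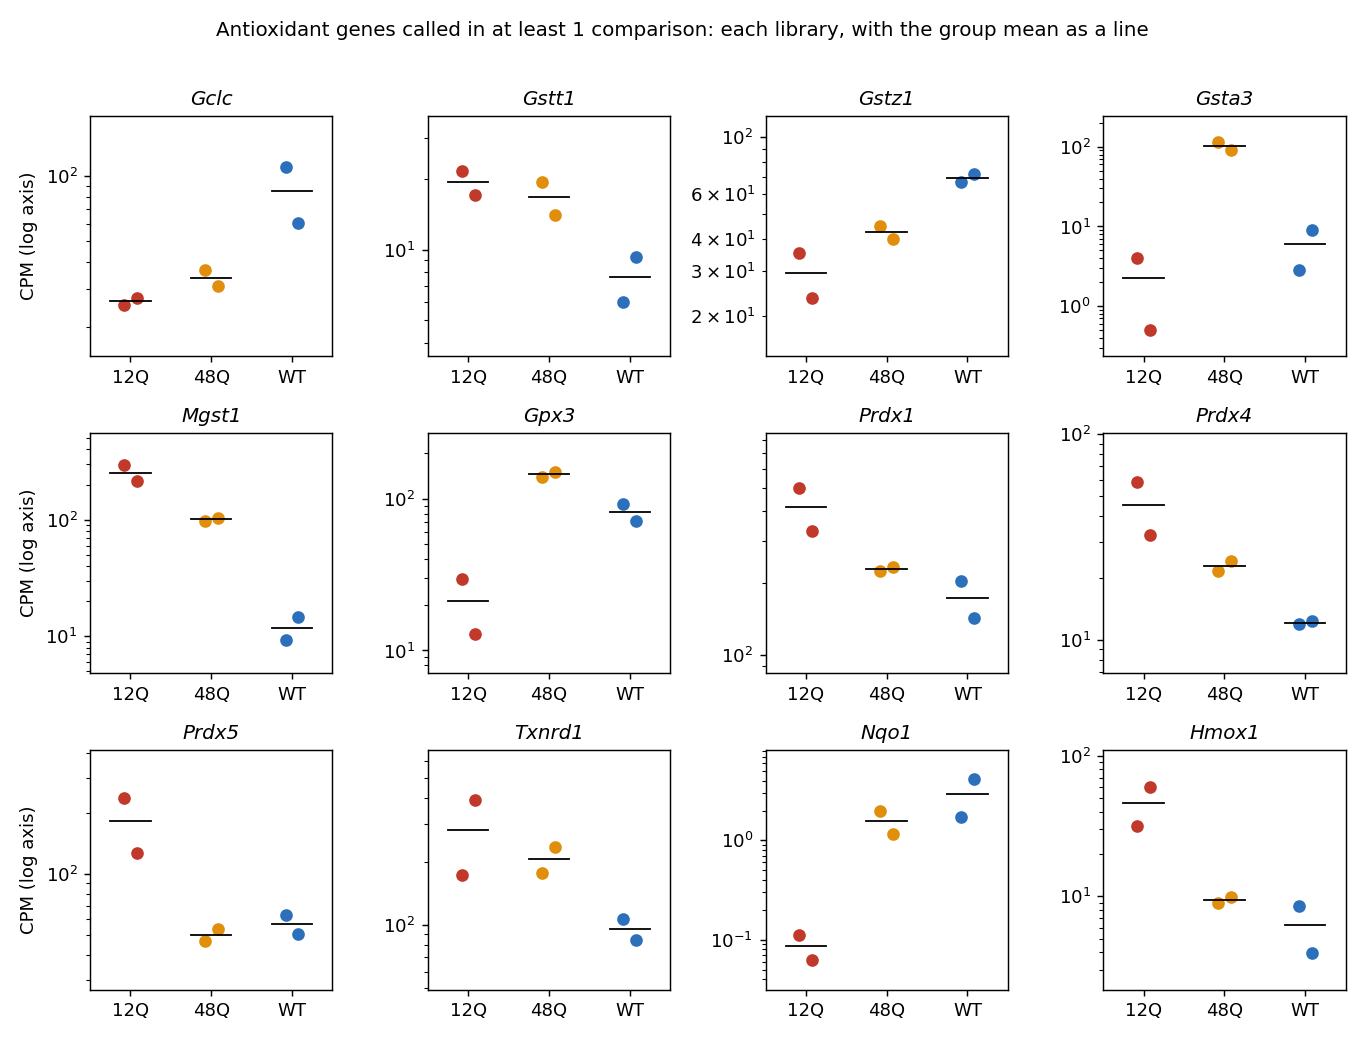
CPM (log axis) of the 12 genes called in at least 1 comparison, with 1 point per library and a line at the mean of each group of 2. Mgst1 steps down from 12Q over 48Q to WT without overlap, Gsta3 is high in the 48Q libraries (115 and 90.6 CPM), and Nqo1 is near the level of single reads in the 12Q libraries.

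The glutathione peroxidases split by gene. Gpx3 (chr11:54902854-54910382, plus strand), the secreted plasma form, had 29.6 and 12.9 CPM in 12Q tumors, 140 and 150 CPM in 48Q tumors and 92.1 and 71.3 CPM in WT. The 3 groups did not overlap, with 12Q lowest and 48Q highest. It fell 6.85-fold in 12Q against 48Q (log2 fold change -2.78 ± 0.42, edgeR adjusted p = 0.0289) and also fell in 12Q against WT (-1.94 ± 0.41, 0.0229). Without 12Q replicate 1 these values were -3.47 and -2.62. In 48Q against WT the value was 0.83 ± 0.40 and did not pass (0.251). Without WT replicate 1 or 2, the call of 12Q against WT was lost (edgeR adjusted p = 0.0793 and 0.0536), and without 12Q replicate 2 or either 48Q replicate, that of 12Q against 48Q was lost (0.0549, 0.105 and 0.0779).

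Gpx3 is known to be expressed outside epithelium too, and markers of stromal cells moved in the same comparisons. Of 8 fibroblast markers, 4 were lower and 0 higher in 12Q against 48Q, the same count held in 12Q against WT, and 0 passed in 48Q against WT by edgeR (4 at an unadjusted p under 0.05, 3 higher by DESeq2). Their summed level was 161 and 464 CPM in 12Q, 1131 and 1012 CPM in 48Q and 647 and 751 CPM in WT, and Dpt had no read in 12Q. Of 8 smooth muscle markers, all 8 were lower in 12Q against WT, 3 in 48Q against WT, and 4 when 12Q was set against 48Q, with summed levels of 54.8 and 53.5 CPM in 12Q, 878 and 315 CPM in 48Q and 2344 and 5936 CPM in WT. Of 7 basal epithelial markers, 6 were lower and 1 higher in 12Q against WT, 0 passed in 48Q against WT by edgeR (2 at an unadjusted p under 0.05 and 2 by DESeq2), and 5 were lower in 12Q against 48Q, with summed levels of 93.5 and 51.0 CPM in 12Q, 574 and 499 CPM in 48Q and 1263 and 757 CPM in WT. The part of these cells in the levels of Gpx3, Gsta3, Gclc and Nqo1 was not tested. In bulk tissue, fewer cells of a type and less RNA per cell cannot be told apart.

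The other 6 tested peroxidases did not pass the edgeR test in any comparison, while DESeq2 called Gpx1, Gpx2, Gpx5 and Gpx8 in at least 1. Gpx1, the cytosolic enzyme and the peroxidase with the highest level per length, had 363 and 179 CPM in 12Q tumors, 102 and 96.5 CPM in 48Q tumors and 278 and 208 CPM in WT. Both 48Q libraries were the lowest (log2 fold change -1.29 in 48Q against WT, edgeR adjusted p = 0.102). Gpx2, a gastrointestinal epithelial form, had 0.962 and 17.6 CPM in 12Q tumors, 6.44 and 2.60 CPM in 48Q tumors and 0.156 and 0.398 CPM in WT. All 4 tumor libraries were above WT, and the 12Q libraries were far apart (5.02 ± 1.48, 0.0558). Gpx8, of the endoplasmic reticulum, had 1.81 and 8.33 CPM in 12Q, 19.0 and 14.3 CPM in 48Q and 25.3 and 23.2 CPM in WT, without overlap between the groups (-2.25 in 12Q against WT, 0.0596).

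Gpx5, an epididymal form, had 19 and 15 counts in 12Q, 2 and 26 counts in 48Q and 0 in both WT libraries. Against a floor of 3 counts per WT library it was at least 4.04-fold higher in 12Q and at least 2.77-fold higher in 48Q, and neither difference passed (edgeR adjusted p = 0.0775 and 0.16). It entered the test only through the tumor libraries. With Gpx5 at these bounds the medians over the 46 genes stay as given, since it remains in the upper part of the list. Gpx4, which reduces phospholipid hydroperoxides and guards against ferroptosis, had 24.8 and 14.02 CPM in 12Q, 12.3 and 11.49 CPM in 48Q and 16.0 and 10.97 CPM in WT, but 61.7% of its 50-base windows also occur in a pseudogene, so its level is uncertain. Gpx7 was at or below 1.42 CPM.

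Of the 6 peroxiredoxins, 3 were higher in 12Q tumors than in WT by edgeR, a comparison in which 11.2% of all genes were called higher. Prdx5 (chr19:6906819-6909645, minus strand), found in mitochondria, peroxisomes and cytosol, had 238 and 128 CPM in 12Q tumors, 46.6 and 53.3 CPM in 48Q tumors and 62.5 and 50.7 CPM in WT. Both 12Q libraries stood above the other 4, while 48Q and WT overlapped. It rose 3.24-fold in 12Q against WT (1.69 ± 0.34 on the log2 scale, edgeR adjusted p = 0.0197) and 3.66-fold in 12Q against 48Q (1.87 ± 0.34, 0.0409). Its exons overlap Trmt112 on the opposite strand, and 29.7% of its 50-base windows are shared. Trmt112 itself had 10.03 and 9.53 CPM in 12Q, 6.90 and 7.02 CPM in 48Q and 11.48 and 6.94 CPM in WT, and passed in neither comparison. The call of Prdx5 against WT was lost without WT replicate 1 or 2 (edgeR adjusted p = 0.0604 and 0.0812), and that against 48Q without any library but 12Q replicate 2 (from 0.0551 to 0.276).

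Prdx4 (chrX:155323918-155338460), the form of the endoplasmic reticulum, had 58.6 and 32.5 CPM in 12Q tumors, 21.6 and 24.3 CPM in 48Q tumors and 12.0 and 12.3 CPM in WT. The groups did not overlap, with WT lowest. It rose in 12Q against WT (1.90 ± 0.34 on the log2 scale, edgeR adjusted p = 0.015), while 0.92 in 48Q against WT did not pass, nor did 0.99 in 12Q against 48Q. Without WT replicate 1 or 2 the call was lost (edgeR adjusted p = 0.0593 and 0.0566). Prdx1 (chr4:116685599-116700000), the main cytosolic form, whose promoter is shown above, had 501 and 330 CPM in 12Q, 225 and 234 CPM in 48Q and 204 and 143 CPM in WT. It rose in 12Q against WT (1.26 ± 0.32, edgeR adjusted p = 0.0366), a call kept without 12Q replicate 2 (0.0381) and lost without any 1 of the other 5 libraries (from 0.0545 to 0.108). Prdx3, the mitochondrial form, had 139 and 83.7 CPM in 12Q, 101 and 109 CPM in 48Q and 127 and 84.1 CPM in WT, with all groups overlapping. Prdx2, cytosolic like Prdx1, was at 161 and 121 CPM in 12Q, 81.3 and 94.1 CPM in 48Q and 92.2 and 85.9 CPM in WT without passing. Prdx2 exons overlap Junb and Rnaseh2a.

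Of the disulfide reductases, Txnrd1 changed. Txnrd1 (chr10:82833951-82897724), the cytosolic thioredoxin reductase and a selenoprotein, had 172 and 394 CPM in 12Q tumors, 176 and 235 CPM in 48Q tumors and 106 and 85.0 CPM in WT. All 4 tumor libraries were above WT, and the 12Q replicates bracketed the 48Q ones. It rose in 12Q against WT (1.57 ± 0.43 on the log2 scale, edgeR adjusted p = 0.0456), and 48Q against WT gave 1.10 ± 0.42 without passing (0.175). The call was kept without 12Q replicate 1 (edgeR adjusted p = 0.0163) and lost without any 1 of the other 5 libraries (from 0.0793 to 0.159), with a log2 fold change of 0.85 without 12Q replicate 2. Gsr, Txnrd2 (mitochondrial) and Txnrd3 (abundant in testis) passed the edgeR test in no comparison, with log2 fold changes in 12Q against WT of 0.56, -0.22 and -0.62.

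Catalase and the superoxide dismutases passed the edgeR test in no comparison, while DESeq2 called Sod3 lower in 12Q against WT and against 48Q (DESeq2 adjusted p = 0.0317 and 0.00304). Sod1, the cytosolic copper-zinc enzyme, had 128 and 44.4 CPM in 12Q tumors, 65.1 and 57.3 CPM in 48Q tumors and 129 and 92.8 CPM in WT. Its 12Q replicates covered nearly the whole range of the other libraries, and 23.1% of its 50-base windows also occur in another gene. Cat was at 78.3 and 44.6 CPM in 12Q, 50.5 and 53.4 CPM in 48Q and 44.4 and 44.0 CPM in WT. Sod2, the mitochondrial manganese enzyme, was at 105 and 69.6 CPM in 12Q, 99.5 and 90.5 CPM in 48Q and 119 and 118 CPM in WT. In 12Q against WT the log2 fold changes were 0.48 ± 0.30 for Cat and -0.45 ± 0.26 for Sod2, differences that the spread between replicates does not resolve. Sod3, the extracellular form, had 0.777 and 0.433 CPM in 12Q, 2.92 and 3.59 CPM in 48Q and 2.03 and 1.95 CPM in WT. The 12Q libraries were below the other 4, as for Gpx3 (log2 fold change -1.72 against WT, edgeR adjusted p = 0.0745, and -2.43 against 48Q, 0.0648).

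In 12Q tumors Hmox1 rose and Nqo1 fell against WT, and Nfe2l2 itself did not pass. Nfe2l2 (chr2:75675513-75704663) had 145 and 175 CPM in 12Q tumors, 123 and 106 CPM in 48Q tumors and 108 and 60.7 CPM in WT. The log2 fold change in 12Q against WT was 0.93 ± 0.32 and did not pass (edgeR adjusted p = 0.0842). Hmox1 (chr8:75093618-75100593, plus strand), the heme-degrading oxygenase, had 31.7 and 60.3 CPM in 12Q tumors, 8.91 and 9.95 CPM in 48Q tumors and 8.61 and 3.98 CPM in WT. Both 12Q libraries were above the other 4, and Hmox1 rose 7.33-fold in 12Q against WT (2.87 ± 0.50, edgeR adjusted p = 0.0136), a call kept under all 12 alternatives. In 48Q against WT the value was 0.59 ± 0.48 (0.479), and 12Q against 48Q, at 2.29 ± 0.49, did not pass (0.0559), but did under 5 of the 12. Without WT replicate 1 the difference of 12Q from WT was 3.53.

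Macrophages that take up red blood cells are a known source of Hmox1. Of 8 macrophage markers, 6 were higher in each tumor group against WT, with 1 lower in 12Q. Their summed level was 239 and 249 CPM in 12Q, 305 and 298 CPM in 48Q and 84.7 and 83.1 CPM in WT, so it was no higher in 12Q than in 48Q. The red blood cell genes summed to 154 and 131 CPM in 12Q, 12.0 and 57.8 CPM in 48Q and 17.7 and 43.6 CPM in WT, and 0 of the 4 tested passed in any comparison by edgeR. In 12Q, 2 of the 4 had an unadjusted p under 0.05 and 2 were higher by DESeq2, against WT and against 48Q alike, while both counts were 0 in 48Q against WT. Their part in the Hmox1 level was not tested.

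Nqo1 went the other way. Nqo1 (chr8:107388225-107403205, minus strand), a quinone reductase that is widely used as a readout of Nfe2l2, had 3 and 2 counts in the 12Q libraries, 66 and 41 counts in the 48Q libraries and 33 and 94 counts in the WT libraries. These are 0.111 and 0.0619 CPM in 12Q, 1.99 and 1.17 CPM in 48Q and 1.72 and 4.16 CPM in WT, where 3 counts are worth 0.0856 to 0.156 CPM. The 12Q libraries lay below the other 4, while 48Q and WT overlapped. Nqo1 fell 32.9-fold in 12Q against WT (-5.04 ± 0.84 on the log2 scale, edgeR adjusted p = 0.012) and 17.6-fold in 12Q against 48Q (-4.14 ± 0.83, 0.0497). From the reads alone, the ratio of 12Q to WT was 0.0277, with an exact 95% interval of 0.00885 to 0.0664 that covers counting error only. Without WT replicate 2 the difference from WT was -4.27 on the log2 scale. The call against WT was lost without 12Q replicate 2 (edgeR adjusted p = 0.0584), and that against 48Q was lost without any 1 of the 4 tumor libraries (from 0.113 to 0.289). It is a low-level gene in all 3 groups.

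**Figure D4:**
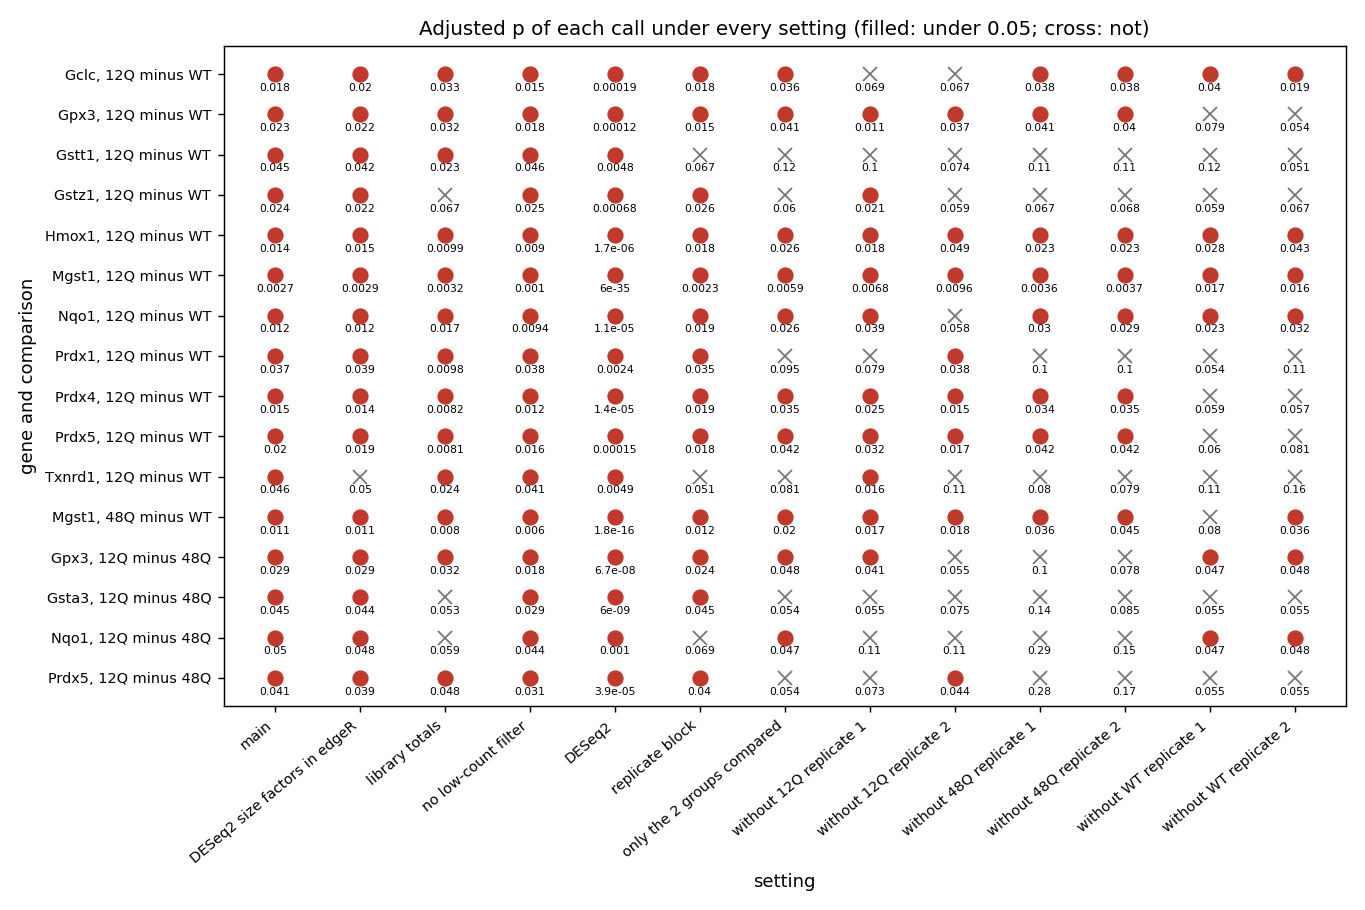
Adjusted p of the 16 calls (rows) under the main and 12 alternative settings (columns), with a filled circle where it is under 0.05 and a cross where it is not. Mgst1 and Hmox1 in 12Q minus WT are filled under all 12 alternatives, whereas Gstt1 and Txnrd1 in 12Q minus WT and Gsta3 in 12Q minus 48Q are filled under 4.

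Other genes of glutathione and redox metabolism were counted from 7 lists. Among 12 regulators of Nfe2l2, 1 was higher and 0 lower in 12Q against WT, and 0 passed in the other comparisons by edgeR (4 and 2 at an unadjusted p under 0.05, 2 and 1 by DESeq2, in 48Q against WT and between the tumors). The higher gene was Nfe2l3, a relative of Nfe2l2, with 77.6 and 105 CPM in 12Q, 39.4 and 56.5 CPM in 48Q and 33.2 and 13.4 CPM in WT (log2 fold change 1.97 in 12Q against WT, edgeR adjusted p = 0.031). Among 17 other target genes of Nfe2l2, 3 were higher and 3 lower in 12Q against WT, 0 passed in 48Q against WT by edgeR (4 at an unadjusted p under 0.05, 3 by DESeq2) and 2 were lower in 12Q against 48Q. The 3 higher ones were Tkt (log2 fold change 1.72) and Pgd (0.96), both of the pentose phosphate pathway, and the glutathione conjugate exporter Abcc1 (1.45). The exporter Abcc4 fell in 12Q against WT (-3.28, edgeR adjusted p = 0.00294) and against 48Q (-2.05, 0.0235), with 8.69 and 7.61 CPM in 12Q, 37.0 and 30.7 CPM in 48Q and 67.8 and 90.8 CPM in WT. Cbr3, a carbonyl reductase, also fell in 12Q against 48Q (-2.39, edgeR adjusted p = 0.0449). The medians of this list were 0.28, -0.47 and 0.51 in 12Q against WT, 48Q against WT and 12Q against 48Q. Those of the regulators were 0.03, -0.48 and 0.35.

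Among 15 genes of glutathione turnover and cystine uptake, 4 were higher and 1 lower in 12Q against WT, 2 higher and 1 lower in 48Q against WT and 1 lower in 12Q against 48Q, with medians of -0.41, 0.07 and 0.14. Ggt7, of the gamma-glutamyltransferase family that breaks down glutathione outside the cell, had 27.5 and 37.6 CPM in 12Q tumors, 12.3 and 11.01 CPM in 48Q tumors and 0.522 and 0.929 CPM in WT. It rose in both tumor groups against WT (log2 fold changes 5.47 and 3.99, edgeR adjusted p = 0.00285 and 0.0121). Anpep, an aminopeptidase that cleaves cysteinylglycine, had 67.8 and 395 CPM in 12Q, 243 and 221 CPM in 48Q and 6.89 and 12.0 CPM in WT, and also rose in both (4.61 and 4.62, edgeR adjusted p = 0.0162 and 0.0399). Oplah, which returns 5-oxoproline to glutamate, rose in 12Q against WT (2.18, edgeR adjusted p = 0.00848). Chac1, which degrades glutathione inside the cell, fell in 48Q against WT (-3.96, edgeR adjusted p = 0.0362). The dipeptidase gene Dpep1 had 0 and 2 counts in 12Q, 198 and 212 counts in 48Q and 69 and 99 counts in WT. Its ratio was 0.00838 in 12Q to WT (exact 95% interval 0.00101 to 0.0308) and 0.00561 in 12Q to 48Q (0.000678 to 0.0204), and it fell in both comparisons (edgeR adjusted p = 0.00703 and 0.0229).

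Among 15 thioredoxins, glutaredoxins and methionine sulfoxide reductases, 1 was higher and 1 lower in each tumor group against WT, and 0 passed between the tumors by edgeR (4 at an unadjusted p under 0.05, 3 by DESeq2), with medians of -0.17, -0.30 and 0.49 in 12Q against WT, 48Q against WT and 12Q against 48Q. Glrx, the cytosolic glutaredoxin, had 93.1 and 73.8 CPM in 12Q, 36.6 and 40.4 CPM in 48Q and 12.6 and 13.4 CPM in WT (log2 fold changes 2.68 and 1.57 against WT, edgeR adjusted p = 0.00339 and 0.0255). Its order of groups was that of Mgst1 and Prdx4. Msra, a methionine sulfoxide reductase, fell in both (-1.18 and -1.73, edgeR adjusted p = 0.0476 and 0.0432). Of 8 genes of NADPH supply, 2 were higher and 0 lower in 12Q against WT, namely Pgd and Pgls (1.05, edgeR adjusted p = 0.0384), both of the pentose phosphate pathway, and 0 passed in 48Q against WT or between the tumors by edgeR (2 and 4 at an unadjusted p under 0.05, 2 and 2 by DESeq2), with medians of 0.14, -0.24 and 0.66. Of 13 genes of selenoprotein synthesis and other selenoproteins, 2 were higher and 2 lower in 12Q against WT and 0 in the other comparisons by edgeR (4 and 4 at an unadjusted p under 0.05, 3 and 2 by DESeq2), with medians of -0.29, -0.48 and 0.37. Selenon (1.66) and the selenophosphate synthetase Sephs2 (1.24) rose, while Selenom (-2.23) and the selenocysteine insertion factor Secisbp2 (-0.86) fell.

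Among genes of enzymes that make superoxide or hydrogen peroxide, only Cyba, Cybb and Ncf1 passed as higher in both tumor groups against WT by edgeR. Nox4, Duox1, Xdh and Aox1 passed in neither. Of 11 tested oxidase genes, 6 were higher and 0 lower in 12Q against WT, 3 were higher and 0 lower in 48Q against WT and 0 passed between the tumors by edgeR (2 at an unadjusted p under 0.05 and 2 by DESeq2). The medians were 2.06, 2.33 and 0.69, and 2.25 in 48Q against WT with Noxa1, which had no read in WT, at its bound. Noxa1 entered the test only through the tumor libraries. Among the genes higher in 12Q, Cyba, Cybb and Ncf1 are subunits of the phagocyte NADPH oxidase, and Noxa1 and Noxo1 serve its epithelial relative Nox1. Cyba, a membrane subunit of the phagocyte enzyme, had 41.3 and 47.0 CPM in 12Q, 20.3 and 17.6 CPM in 48Q and 2.87 and 3.63 CPM in WT (log2 fold changes 3.76 and 2.54 against WT, edgeR adjusted p = 0.00274 and 0.0141). Cybb, the catalytic subunit, rose by 2.06 and 2.51 on the log2 scale (edgeR adjusted p = 0.00691 and 0.0135). Ncf1 rose in both (1.96 and 2.55). Of 4 tested neutrophil markers, 3 were higher in 12Q and 2 in 48Q against WT, beside the macrophage markers given above. The neutrophil genes summed to 8.88 and 33.6 CPM in 12Q, 13.3 and 13.8 CPM in 48Q and 0.626 and 0.221 CPM in WT, with S100a8, Ly6g and Mpo at 0 in WT and Mpo at 0 in 12Q. Tested markers at 0 in WT entered the test only through the tumor libraries and could not be called lower against WT. The part of neutrophils and macrophages in the oxidase levels was not tested.

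**Figure D5:**
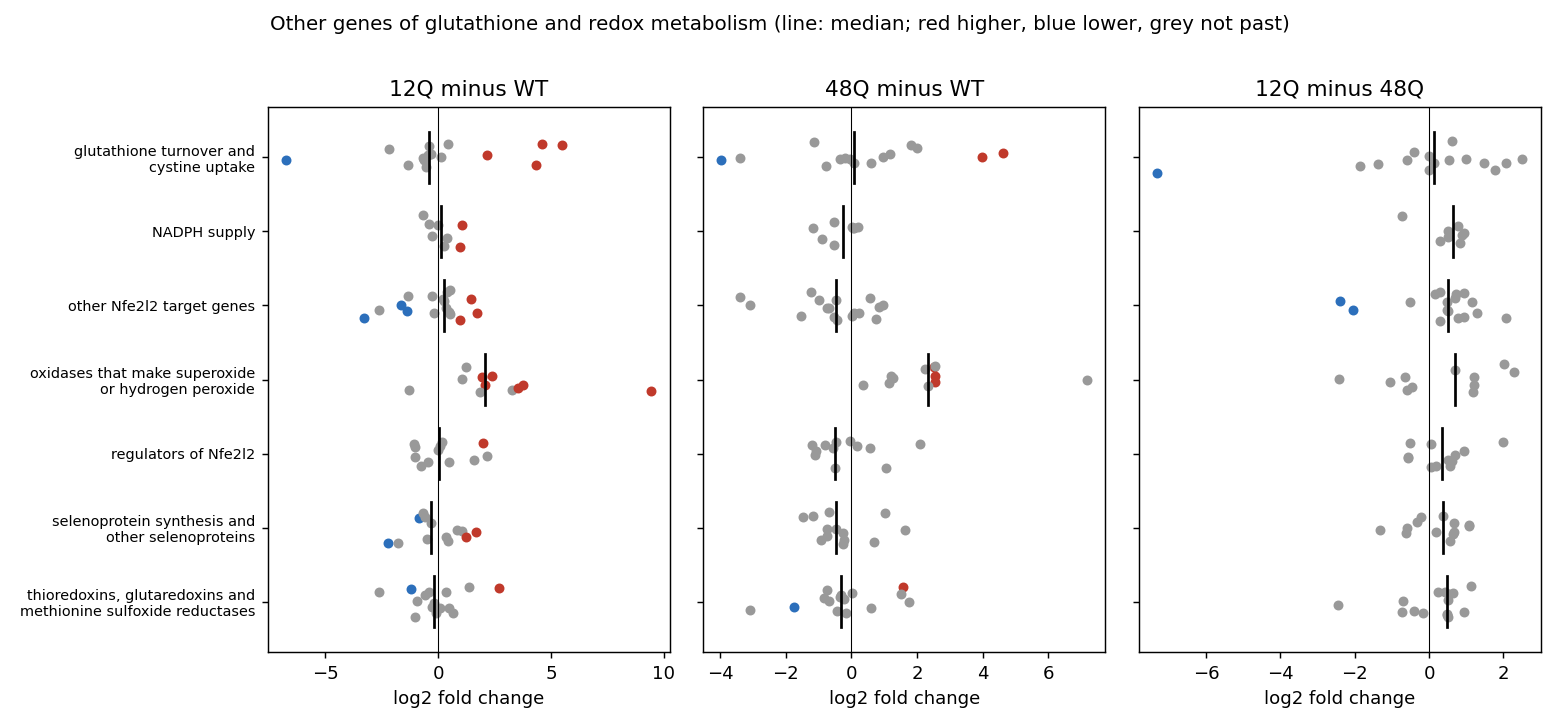
Log2 fold changes from edgeR of the genes of 7 pathway lists in the 3 comparisons, with 1 point per tested gene (vertical scatter is for legibility) and a line at the median of each list. The oxidases lie mostly to the right in both tumor groups against WT (medians 2.06 and 2.33), and the other lists have medians between -0.48 and 0.66.

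The labelled tissue was checked against marker genes. Luminal epithelial markers were detected in all libraries, with summed levels of 9373 and 7672 CPM in 12Q, 4052 and 4051 CPM in 48Q and 13032 and 8096 CPM in WT, and 2 of 8 were lower in 12Q and 1 in 48Q against WT. Prostate secretory genes summed to 5180 and 546 CPM in 12Q, 29232 and 13623 CPM in 48Q and 274142 and 297272 CPM in WT. Of these sums, 9530053A07Rik alone gave 4871 and 513 CPM in 12Q, 24658 and 10832 CPM in 48Q and 245817 and 281016 CPM in WT. Of the 4 tested, 1 was lower in 12Q and 0 passed in 48Q against WT by edgeR (2 at an unadjusted p under 0.05, 3 by DESeq2), with medians of -3.02 and -0.73, and 1 was lower in 12Q against 48Q. The secretory sum and Prdx6 were both highest in the WT libraries, as were the smooth muscle, basal and skeletal muscle sums. The part of secretory cells or of these other cells in the Prdx6 level was not tested. Squamous markers were higher in 12Q for 4 of 8 and in 48Q for 2 of 8 against WT, with 1 lower in 12Q, and summed to 179 and 272 CPM in 12Q, 40.7 and 58.6 CPM in 48Q and 6.78 and 11.4 CPM in WT, with Krt16 and Sprr1b at 0 in WT. Krt16 and Sprr1b entered the test only through the tumor libraries. Between the tumors 1 of the 8 was higher and 1 lower in 12Q, with a median log2 fold change of -0.29. Their summed level, though not their median, had the order of 12Q over 48Q over WT that Mgst1 had, and their part in the Mgst1, Prdx4 and Glrx levels was not tested. Endothelial markers were higher for 3 of 7 and lower for 1 in 12Q against WT, and 1 was lower in 48Q. They summed to 255 and 298 CPM in 12Q, 128 and 127 CPM in 48Q and 75.1 and 109 CPM in WT. This is also the order of groups that Mgst1 had, and the part of endothelium in the Mgst1, Prdx4 and Glrx levels was not tested. Seminal vesicle genes summed to 1.55 and 2.44 CPM in 12Q, 25.98 and 49.22 CPM in 48Q and 0.730 and 0.884 CPM in WT. Of 6 tested, 1 was higher in 12Q and 2 in 48Q against WT and 3 were lower in 12Q against 48Q, with Svs6 at 0 in 12Q, Svs1 at 0 in 48Q and Svs1, Svs2, Svs3a and Svs6 at 0 in WT. Tested genes at 0 in WT entered the test only through the tumor libraries. The seminal vesicle sum was highest in the 48Q libraries, as were Gsta3 and the fibroblast sum. The part of seminal vesicle tissue or of fibroblasts in the Gsta3 and Gpx3 levels was not tested. Of 3 skeletal muscle genes 2 were lower in 12Q and 1 in 48Q against WT, and 0 of 3 adipocyte genes passed by edgeR, while all 3 were lower in 12Q against 48Q by DESeq2 and at an unadjusted p under 0.05. Adipoq, Cidec and Lep were at 0 in 12Q, and Myh4 of muscle was at 0 in all groups.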

How the data were processed

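The authors deposited 1 table of raw read counts per gene for the 6 libraries, with coordinates and a length for each gene. The submitters' processing notes name TopHat2 2.0.14, HTSeq 0.6.0 and the genome build mm10. Which annotation, strand setting and rule for multi-mapping reads were used is not given in the sources used here. Per the labels' protocols, RNA-Bee was used for total RNA and the Kapa RNA HyperPrep kit for libraries. Groups and replicate numbers were taken from the labels.

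From the deposited counts, filterByExpr (counts of at least 10, total of at least 15) kept 15050 genes. TMM scaled them, and the quasi-likelihood F test of edgeR 4.0.16 (R 4.3.3) was run in 1 model of all 3 groups, which left 3 residual degrees of freedom. The Benjamini-Hochberg adjustment ran over those 15050 genes, with a threshold of 0.05. The standard error is the log2 fold change divided by the square root of F. RPKM uses the deposited gene lengths. The biological coefficient of variation was 0.378. Replicates of a group differed by more than sampling noise (chi-square over its degrees of freedom 263 in 12Q, 40.1 in 48Q and 183 in WT), so none was taken for a copy. The fit was tested on simulated data.

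The antioxidant genes, the pathway and marker lists and the tests were chosen with earlier results of these data known. Values per library are given for every antioxidant gene past the threshold in a comparison and for the 8 with the highest mean RPKM, and values of others were added after they were seen. From each pathway list, up to 4 called genes per comparison, by smallest adjusted p, are named, and some are not reported here. Coordinates are those of the table (mm10, 1-based). Shared 50-base windows and overlapping exons were found with GENCODE M21. Promoters are RefSeq's. The alternatives tried were scaling by DESeq2's size factors, scaling by library totals, no filter on low counts, DESeq2 1.42.0 as the test, the replicate number as a block, a fit of only the 2 groups compared and leaving out each library. Bounds for genes without reads use 3 counts per library, and intervals and bounds cover counting error only.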

Additional observations from a re-analysis of the deposited data

Results flagged for a closer look

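For 4 antioxidant genes the difference of 12Q tumors from WT was not the same as that of 48Q tumors from WT, by edgeR's test of 12Q against 48Q in the fit of all 3 groups. The difference between the tumors was -2.78 for Gpx3, -5.53 for Gsta3, -4.14 for Nqo1 and 1.87 for Prdx5 on the log2 scale (edgeR adjusted p = 0.0289, 0.0452, 0.0497 and 0.0409). In each case both 12Q libraries lay on 1 side of both 48Q libraries. The genes were chosen by that test on the same libraries, so this adds no support. The call of Gpx3 was kept under 9 of 12 alternatives, those of Nqo1 and Prdx5 under 6 and that of Gsta3 under 4. Groups of 2 libraries are too small for a test of single outlying libraries.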

How the results depend on the processing

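No called log2 fold change of an antioxidant gene changed sign under any of the 12 alternatives. Counts of calls did move. Against WT, antioxidant genes higher in 12Q numbered 16 with library totals and 12 by DESeq2 (7 in the main fit), and lower ones 7 by DESeq2 (4). In 48Q, higher ones numbered 8 with library totals, 6 by DESeq2, 2 without the filter and 2 in the fit of only the 2 groups (1), and lower ones 4 by DESeq2 and 1 in the fit of 2 groups (0). Between the tumors, higher ones in 12Q numbered 7 by DESeq2, 2 without the filter and 2 in the fit of 2 groups (1), and lower ones 1 with library totals (3). Over all genes, calls in 12Q against WT numbered 4298 with library totals, 4916 by DESeq2 and 1887 with only the 2 groups (3370). In 48Q against WT they numbered 2004 with library totals, 2540 by DESeq2 and 1170 with only the 2 groups (780). In 12Q against 48Q they numbered 2481 by DESeq2 (627). With library totals the log2 fold changes of all genes had medians of 0.48 (12Q to WT), 0.71 (48Q to WT) and -0.19 (12Q to 48Q), and the share of calls that were higher moved to 76.0%, 95.9% and 14.1% (50.1%, 76.3% and 24.2% with TMM). In these terms the Mgst1 values of 4.88 in 12Q and 3.75 in 48Q are to be read against those shifts. DESeq2 moved the share that were higher to 61.5% (48Q to WT) and 37.1% (12Q to 48Q). The cause was not tested.

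Leaving out each library in turn gave 2 to 7 antioxidant genes higher and 2 to 7 lower in 12Q against WT, 0 to 3 higher and 0 to 2 lower in 48Q against WT, and 0 to 2 higher and 0 to 2 lower in 12Q against 48Q. Over all genes it gave 1861 to 2934, 0 to 1215 and 47 to 866 calls, and the 0 came from leaving out WT replicate 1. A group left with 1 library is assumed to vary like the others. The replicate numbers share only a number: deviations of same-numbered libraries correlated at 0.03 between 12Q and 48Q, 0.13 between 12Q and WT and -0.10 between 48Q and WT. With the replicate block, 5 antioxidant genes were higher and 4 lower in 12Q against WT, 1 and 0 for 48Q to WT and 1 and 2 for 12Q to 48Q, with 3066, 854 and 605 calls over all genes.

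At these depths 3 counts are 0.0856 to 0.156 CPM, so the level of Nqo1 in 12Q cannot be told from that of a few stray reads.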
